A study of Homo sapiens with 5 samples.

Results

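The genes ANKHD1, FAM193B, EFL1, CTSC, PCCA, FHIT, CYTH1 and SAMD4A each carried a peak of RNA retrieved with oligonucleotides against SNHG5. It had its summit outside annotated exons and was strong with both oligonucleotide pools. The 8 genes were chosen by that property, from the fold enrichments in the lists used here, and all peaks of both lists that overlapped their gene bodies on hg19 by at least 1 bp were then collected. This gave 55 peaks of the 9531 in both lists together, 11 of 905 in the Odd list and 44 of 8626 in the Even list. The enrichments that chose the genes are given as a description and were not tested. Whether the RNA under these peaks was attached to SNHG5 was not tested either, and the study left peaks in introns out as most likely errors. The peaks came from RIA-seq, in which biotinylated DNA oligonucleotides retrieve a cross-linked RNA with whatever RNA is attached to it, and the bait was SNHG5, a long noncoding RNA. All libraries came from HCT-116, an established human colorectal cancer cell line, cross-linked with glutaraldehyde and carrying no genetic change or treatment that differed between groups. The groups were 2 Odd libraries and 1 Even library, named after the sets of alternate oligonucleotides along SNHG5, and 2 control libraries, which the sample labels call input and the methods describe as a pool against luciferase. Each pool has 1 deposited list, made from both Odd libraries together or from the Even library alone, and spread between replicates could not be measured.

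Introns are copied into the precursor of an mRNA and removed by splicing, after which most are degraded quickly in the nucleus. A tag in an intron can come from unspliced precursor, from an excised intron or from another transcript of the same stretch, and the lists, which give no strand, do not tell these apart. SNHG5 is itself a host gene of small nucleolar RNAs, which are cut from its introns, while its spliced exons form the noncoding RNA that the oligonucleotides target. The oligonucleotides are complementary to SNHG5, so any RNA that holds a stretch of SNHG5 in the same orientation is complementary, over that stretch, to the oligonucleotides that cover it.

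The 8 strongest peaks shared a short stretch of SNHG5 sequence, which is printed first because the rest of the account refers to it. In the window of 250 bp to either side of each Odd summit, TAGAGGCC was the longest stretch of the 456-nt transcript SNHG5-214 that all 8 windows held on the strand of their gene. It lies at positions 305 to 312 of that transcript, counted from 1 at its 5′ end. In SNHG5, at chr6:86387159-86387206 of hg19 on the minus strand, the stretch around it reads as follows, with the word in capitals:
SNHG5: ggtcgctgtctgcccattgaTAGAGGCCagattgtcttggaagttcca
The 8 genomic stretches below are on the strand of the gene, 5′ to 3′, with the word and 20 bases to either side of it. Capitals mark the unbroken run that is identical to SNHG5 and contains the word.
ANKHD1, chr5:139853573-139853620, plus strand: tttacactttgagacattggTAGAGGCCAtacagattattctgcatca
FAM193B, chr5:176969246-176969293, minus strand: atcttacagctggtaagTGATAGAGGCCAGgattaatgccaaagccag
EFL1, chr15:82498004-82498051, minus strand: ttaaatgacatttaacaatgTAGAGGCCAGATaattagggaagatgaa
CTSC, chr11:88020040-88020087, minus strand: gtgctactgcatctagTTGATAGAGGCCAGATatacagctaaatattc
PCCA, chr13:100945914-100945961, plus strand: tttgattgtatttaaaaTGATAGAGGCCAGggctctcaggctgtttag
FHIT, chr3:60903213-60903260, minus strand: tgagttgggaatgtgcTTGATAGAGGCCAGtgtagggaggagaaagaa
CYTH1, chr17:76756395-76756442, minus strand: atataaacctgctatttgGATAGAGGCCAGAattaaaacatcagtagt
SAMD4A, chr14:55175692-55175739, plus strand: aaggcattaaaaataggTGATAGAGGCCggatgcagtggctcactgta
The runs were 9 nt in ANKHD1, 11 nt in SAMD4A, 12 nt in EFL1, 13 nt in FAM193B, PCCA and CYTH1, 14 nt in FHIT and 16 nt in CTSC. They all fell between positions 301 and 316 of SNHG5, and the flanks of the 8 stretches outside them were not compared with one another. The word was chosen after these sequences had been seen, so its presence in the 8 windows is a description. Runs of this length were not particular to the 8, whose median longest run was 13 nt. Among other Odd peaks in introns, the median was 12 nt for the 148 overlapped by an Even peak. For the 19 of these with an Even fold enrichment of at least 50 it was 13 nt. It was 11 nt for Odd peaks in introns without an Even peak and 10 nt for those in exons.

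ANKHD1, SAMD4A and EFL1 encode proteins that act on RNA or ribosomes. ANKHD1, which encodes a large protein of ankyrin repeats with an RNA-binding KH domain, had the highest Odd enrichment of the 8. Its peak covered 633 bp at chr5:139853284-139853916 and was supported by 166 tags at the Odd summit and 31 at the Even summit. A tag here is a mapped read extended to the estimated fragment length, and the pileup is the number of tags over a base. Fold enrichment, the deposited ratio of the pileup to the local control background, was 351 for Odd and 147 for Even. The summit lay in intron 10 of 33 of the canonical transcript, 9178 bp after exon 10 and 8626 bp before the next exon of that transcript. An exon of another ANKHD1 transcript was closer, at 1477 bp. The readthrough gene ANKHD1-EIF4EBP3 ran across the peak on the same strand, and no gene lay on the other strand, where SNORD45 was the nearest at 53398 bp.

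SAMD4A, the human Smaug homologue and an RNA-binding repressor of translation, had its peak in intron 3 of 12, at chr14:55175451-55176179. The pileup was 85 tags for Odd and 22 for Even, and fold enrichment was 180 and 104. The summit was 6432 bp from the nearest exon of a basic transcript, basic being the set of representative, mostly full-length models in the annotation. SAMD4A was the only one of the 8 with a gene on the opposite strand across the peak, the long noncoding RNA SAMD4A-AS1, whose nearest exon was 19885 bp away.

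EFL1, a GTPase that works with SBDS to release EIF6 from new large ribosomal subunits, had its peak in intron 15 of 19, at chr15:82497663-82498285. The pileup was 81 tags for Odd and 26 for Even, and fold enrichment was 171 and 123. The summit lay 9051 bp after the upstream exon and 41682 bp before the downstream one, and the Odd and Even summits were 1 bp apart. No other peak of either list lay in EFL1.

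CTSC, PCCA and FHIT encode enzymes. CTSC, the lysosomal dipeptidyl peptidase that activates granule proteases, had 301 tags for Odd and 173 for Even, with fold enrichments of 122 and 175. It was the only gene of the 8 whose Even enrichment was above its Odd enrichment. The label intronic holds for CTSC only in part. The peak, at chr11:88019351-88020514, began beyond the 3′ end of all basic CTSC transcripts, with the summit 6680 bp past the end of the canonical one and 5582 bp from the nearest basic exon. It lay in the last intron, number 7 of 7, of CTSC-225 alone, a transcript annotated as a target of nonsense-mediated decay, 3490 bp after that transcript's previous exon.

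PCCA, the alpha subunit of mitochondrial propionyl-CoA carboxylase, had its peak in intron 12 of 23, at chr13:100945248-100946269. The pileup was 104 tags for Odd and 24 for Even, and fold enrichment was 220 and 114. The nearest basic exon was 7731 bp from the summit, but a 31-bp exon of PCCA-205, a transcript outside the basic set, lay 475 bp away and within the Odd peak.

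FHIT, a hydrolase of diadenosine triphosphate whose gene spans a common fragile site, had its peak deep in an intron of 220013 bp, intron 3 of 9, at chr3:60902876-60903604. The pileup was 87 tags for Odd and 23 for Even, and fold enrichment was 184 and 109. The neighbouring FHIT exons were 124475 bp upstream and 95539 bp downstream of the summit. The nearest exon of any annotated transcript, 60967 bp away, belonged to a U3 small nucleolar RNA model.

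The remaining genes were CYTH1 and FAM193B. CYTH1, a guanine nucleotide exchange factor for ARF GTPases, had its strongest peak in intron 1 of 13, at chr17:76755676-76756570. The pileup was 150 tags for Odd and 52 for Even, and fold enrichment was 122 and 105. The summits of both pools fell on the same base, 21967 bp from the first exon. FAM193B had the highest Odd pileup of the 8, with 385 tags for Odd and 125 for Even and fold enrichments of 156 and 127. Its peak, 1496 bp wide at chr5:176968582-176970077, lay in intron 1 of 8, with the summit 3048 bp before exon 2.

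**Figure D1:**
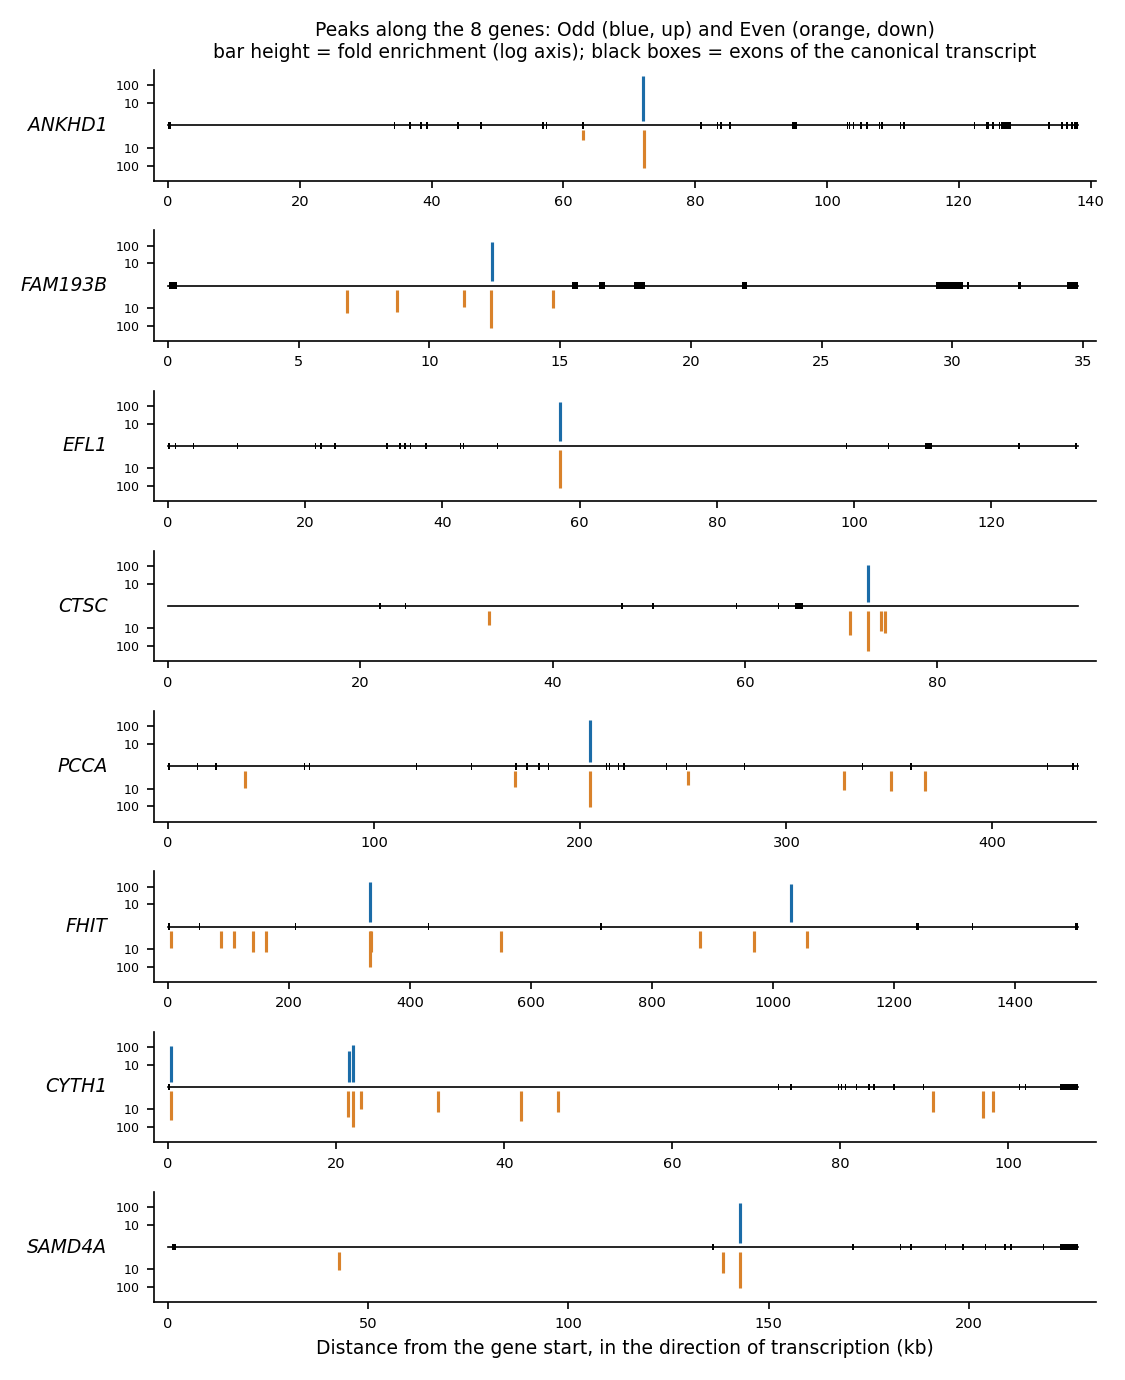
Peak summits along the 8 genes, with the distance from the gene start in kb on the horizontal axis and fold enrichment on a log scale as bar height, Odd upward in blue and Even downward in orange. Black boxes are exons of the canonical transcript. In each gene one pair of Odd and Even bars over 100 stands at the same place between the boxes, and in CTSC that place is past the last box.

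The control was almost empty at these positions. At the peaks of ANKHD1, EFL1, PCCA, FHIT and SAMD4A the background was the genome-wide level, 0.472 for Odd and 0.428 for Even, which the caller uses where neither the control tags at the summit nor those in wider windows around it give more. Among all peaks, 12.5% of the Odd list and 35.9% of the Even list were at that level. There the printed fold depends on this constant, and a lower bound was computed against 3 control tags per summit. It was at least 45.0-fold for Odd and 21.0-fold for Even in ANKHD1, and in the other 4 genes it ranged from 21.9 in EFL1 to 28.2 in PCCA for Odd. For Even it ranged from 14.9 in SAMD4A to 17.6 in EFL1. CYTH1 had 1 control tag, and FAM193B and CTSC had 2 each. The interval of the enrichment that such small counts allow (95%, exact, counting error only) ran for Odd from 21.5 to 4846 in CYTH1, from 43.0 to 1296 in FAM193B and from 33.6 to 1015 in CTSC.

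Per 1000000 tags kept, the summits held 16.5 (EFL1) to 78.5 (FAM193B) tags for Odd and 11.2 (SAMD4A) to 88.0 (CTSC) for Even. A count of 0 in the control allows up to 0.753 on this scale. The ratio of Odd to Even ran from 0.697 in CTSC (0.576 to 0.846, 95% exact interval) to 2.15 in ANKHD1 (1.46 to 3.26). The same tags chose the peaks, so these ratios are a description and no difference between the pools was tested. The intervals cover counting error only, since amplified reads are not independent molecules, and the pools also differed in the duplicates kept per position, at most 3 for Odd and 2 for Even.

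**Figure D2:**
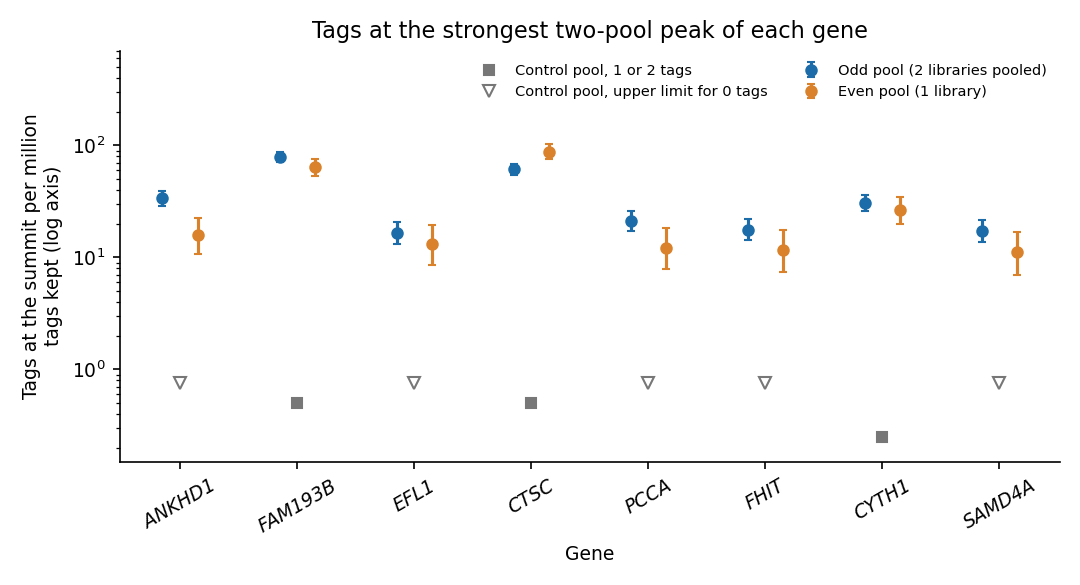
Tags at the summit per 1000000 tags kept, on a log axis, for the strongest peak of each gene in the Odd and the Even pool, with 95% exact Poisson intervals as error bars, and in the control. Odd points run from 16.5 to 78.5 and Even points from 11.2 to 88.0, while the control has 0 to 2 tags, drawn at its upper limit of 0.753 where it has 0.

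Of the 11 Odd peaks in the 8 genes, 10 were overlapped by an Even peak, a share fixed largely by the choice of genes, against 39.8% of all Odd peaks and 44.8% of those in introns. Of the 44 Even peaks 10 were overlapped by an Odd peak (22.7%), against 4.32% of the Even list, but 8 of the 10 were chosen for that, and of the other 36 it was 2. An enrichment of at least 100 was reached by 7.73% of the Odd and 1.83% of the Even list. Such an enrichment in both lists was found at 12 of the 905 Odd peaks, 1.33%, and these were the 8 above and 4 others. None of the 12 had its summit in an exon of a basic transcript. The smaller of the 2 enrichments was 104 in SAMD4A, the lowest of the 8, and 83.4 at the next peak below, in an intron of RALY. The 4 others above this limit lay in introns of the noncoding genes NR2F2-AS1 and LNC-LBCS and at 2 positions outside annotated genes.

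**Figure D3:**
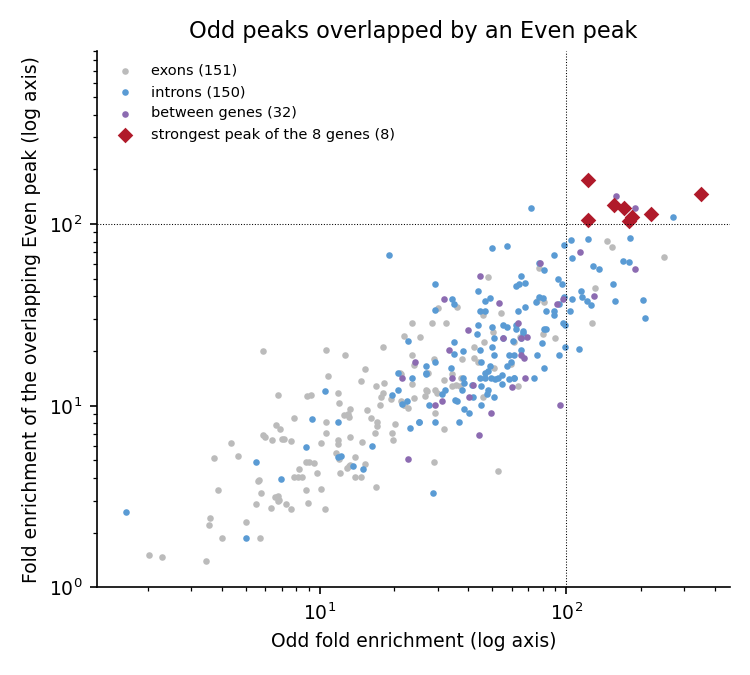
Fold enrichment of Odd peaks overlapped by an Even peak, outside SNHG5, against that of the Even peak, both on log axes, coloured by the position of the Odd summit. Dotted lines mark 100 on each axis, and the strongest peaks of the 8 genes (diamonds) lie beyond both lines, with smaller enrichments of 104 to 147, as they were chosen to.

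The position of these peaks relative to exons was not used by the rule beyond lying outside them. The summits lay 1477 to 60967 bp from the nearest basic exon, with a median of 7082 bp, against a median of 2151 bp for the 148 other 2-pool Odd peaks in introns and 2518 bp for all 352 Odd peaks in introns outside SNHG5. The 8 include CTSC, whose summit lay outside basic transcripts, while the comparison groups hold only peaks in basic introns. With all annotated transcripts the distances of the 8 were 475 to 60967 bp, with a median of 4317.5 bp. These distances exceeded the fragment lengths of 260 bp (Odd) and 290 bp (Even) in all 8 genes, as for most Odd peaks in introns, of which 47 of 352 (13.4%) lay within 260 bp of a basic exon. The peaks of the 8 genes were 623 to 1496 bp wide for Odd and 569 to 1502 bp for Even, and their Odd and Even summits were 0 to 94 bp apart, with a median of 19 bp.

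Exact copies of 48-base words of the windows were few, and diverged copies were not counted. With words of 48 bases, the length of an Odd tag, the share found elsewhere in the genome was 0% in 6 of the 8 windows, 0.220% in SAMD4A and 0.881% in CYTH1. The most frequent such word occurred at 8 places in the genome for CYTH1 and at 2 for SAMD4A. With words of 36 bases it rose to 3.86% in EFL1, 10.3% in CYTH1 and 15.2% in SAMD4A and stayed at 0% in the other 5. GC content was 31.9% to 46.5%, with a median of 36.5%, against 41.5% for the other 2-pool Odd peaks in introns.

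The word lay close to every summit. Its centre was between 102 bp upstream and 57 bp downstream of the Odd summit in the direction of transcription, and within both the Odd and the Even peak in all 8 genes. Each window held exactly 1 copy, and no copy of the reverse complement GGCCTCTA. Cut into 5348 windows of the same 501 bp, the 8 gene bodies held the word on the gene's strand in 0.804% and on the other strand in 0.393%. Along the whole genes there were 44 copies on the gene's strand, of which the 8 at the strongest peaks were the only ones under an Odd or an Even peak. On the opposite strand there were 21 copies, none under an Odd peak and 1 under an Even peak, in CTSC. The word was defined by its presence in all 8 windows, so its presence at these peaks cannot be set against these shares and counts.

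**Figure D4:**
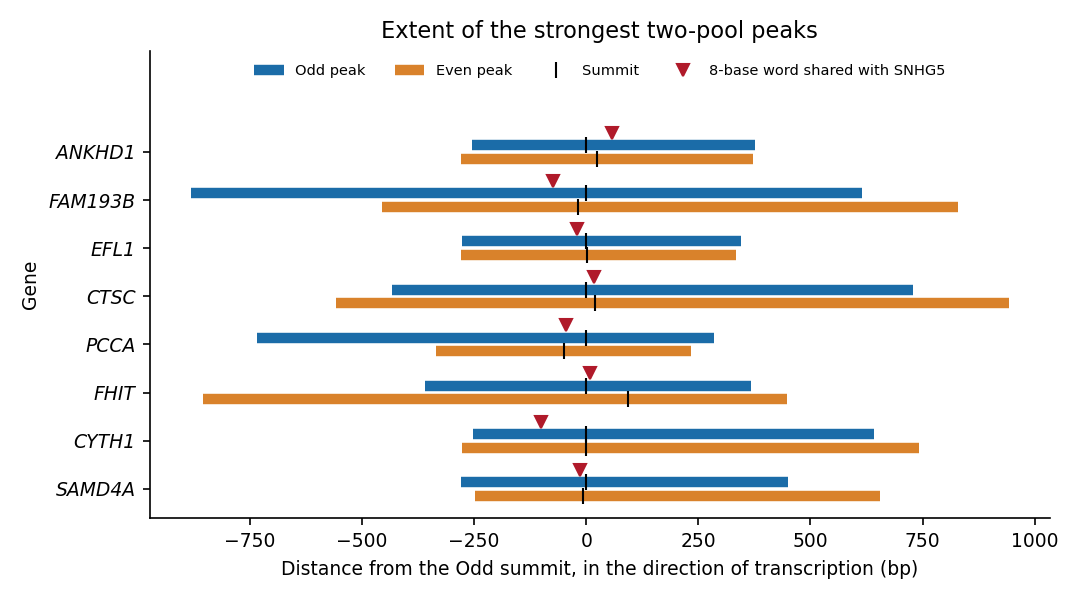
Extent of the strongest Odd (blue) and Even (orange) peak of each gene, as the distance in bp from the Odd summit in the direction of transcription. Ticks mark the summits and triangles the word shared with SNHG5, which lies between 102 bp before and 57 bp after the Odd summit and inside both peaks.

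Among the copies of the word on the strand of each gene, the copy under the peak had, with 1 exception, the longest run. Stretches without the word were not searched along the whole genes. Because the word was taken from these copies, this is a description. In EFL1, CTSC, PCCA, FHIT, CYTH1 and SAMD4A no other copy on the gene's strand had as long a run with SNHG5, and FAM193B had no other copy. In FHIT, with 19 copies along its 1504131 bp, the run under the peak was 14 nt and the longest at a copy outside peaks was 13 nt. ANKHD1 was the exception, where the run under the peak was 9 nt and the other 4 copies on the gene's strand, under no peak, had runs at least as long, up to 11 nt. Over the 20 bases of SNHG5 from 7 before the word to 5 after it, 12 (EFL1) to 16 (CTSC) bases were identical, and ANKHD1, with the shortest unbroken run, had 15. The longest run of each window with the complementary strand of SNHG5 was shorter, at 7 to 11 nt.

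Of the 20 oligonucleotides listed for SNHG5, 16 matched SNHG5-214 exactly as read from an extracted listing, and 2 of these reached the stretch. The segment of oligonucleotide 13, positions 288 to 307, covered 3 to 7 bases of the runs, and that of oligonucleotide 15, positions 307 to 325, covered 6 to 10 bases. Neither segment contained the whole word. The pool of each oligonucleotide was not used here, and binding of oligonucleotides to the 8 stretches was not tested.

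The word was also counted in the windows of all other peaks. Counted on either strand, it was in the windows of 157 of 885 Odd peaks outside SNHG5 (17.7%), the 8 above included. It was in 71 of the 148 other 2-pool Odd peaks in introns (48%), 27 of the 194 Odd peaks in introns without an Even peak (13.9%), 17 of the 62 Odd peaks between genes (27.4%) and 34 of the 470 Odd peaks in exons (7.23%). Among the 905 Even peaks of smallest p, of which 852 lay outside SNHG5 and on the reference chromosomes, 48 held it (5.63%), or 8.89% of those in introns, and among those with 3 tags or fewer in the whole Even list 2.10% did. For Odd peaks in introns of genes on 1 strand, outside the 8, the word was on the gene's strand in 86 and on the opposite strand in 5.

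The same strand difference was seen from the side of the sequence. Gene bodies outside the 8 genes and SNHG5, coding or long noncoding, held 17115 copies of the word on the gene's strand and 16986 on the opposite strand. Of the former 127 lay in an Odd peak (0.742%) and 84 in both an Odd and an Even peak, and of the latter 5 lay in an Odd peak (0.0294%) and 1 in both. On the gene's strand the share in both peaks rose with the length of the run, from 0.0136% of 7336 copies with 8 nt to 20.5% of 151 copies with 13 nt or more. On the opposite strand none of 113 copies with 13 nt or more lay in a peak of either list. These are counts over sites, which are not independent replicates, and expression of the genes was not measured here.

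**Figure D5:**
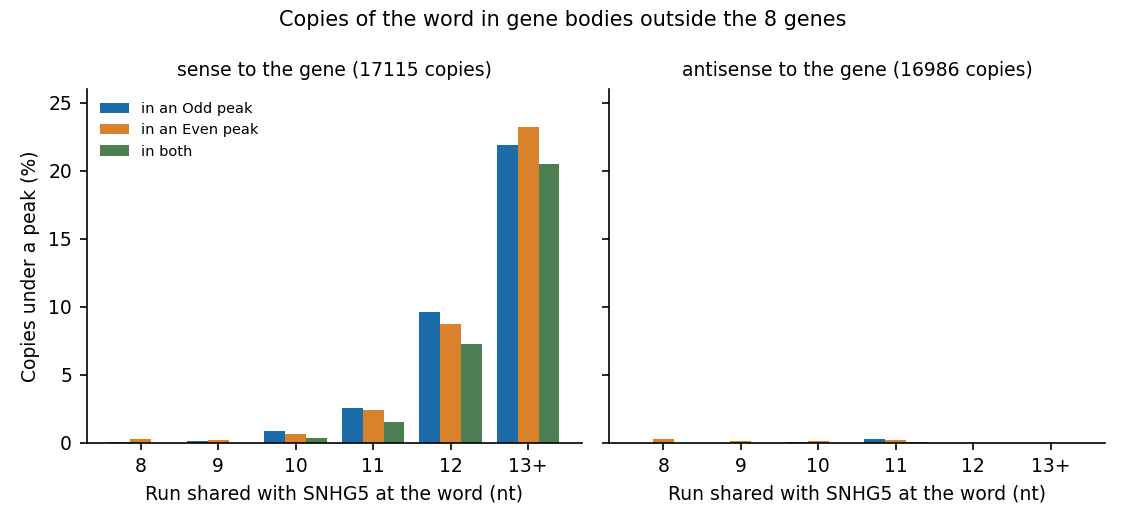
Share of copies of the word that lay in an Odd peak, in an Even peak or in both, in percent, by the length of the run shared with SNHG5 at the copy, for copies on the strand of the gene (left) and on the opposite strand (right). On the left the share in both rises from 0.0136% to 20.5%, and on the right no copy with a run of 12 nt or more is in a peak.

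The other peaks of the 8 genes were 3 Odd and 36 Even peaks, and none of them held the word on the gene's strand. FHIT had a further Odd peak of 172 tags and an enrichment of 140, 696765 bp from the first and 206601 bp from the nearest exon, with no Even peak over it. Its pileup was above that of the 2-pool FHIT peak, and the window shared an 11-nt run with positions 240 to 250 of SNHG5 on the gene's strand. CYTH1 had 2 further Odd peaks, both overlapped by Even peaks. One, of 26 Odd and 6 Even tags, lay 564 bp from the strongest summit, and its longest run was 9 nt, at positions 119 to 127 of SNHG5. The other, of 129 Odd and 19 Even tags with enrichments of 105 and 38.5, had its Odd summit 301 bp from the first exon. Both its Odd and its Even peak ran across that exon and past the start of the gene. The Odd window had 77.4% GC and shared a 12-nt run with positions 278 to 289. Such runs were no longer than the median of other Odd peaks in introns. Over those outside the 8 genes, the median longest run was 11 nt without an Even peak and 12 nt with one. Those peaks were retrieved too, and runs in windows without a peak were not measured. The 12-nt run lay within the segments of oligonucleotides 12 (271 to 290) and 14 (278 to 294). The 11-nt run overlapped the ends of those of 10 (224 to 243) and 11 (246 to 265). Binding to them was not tested. The 11-nt and 12-nt runs are shown in capitals below, on the strand of the gene:
FHIT, chr3:60206523-60206563, minus strand: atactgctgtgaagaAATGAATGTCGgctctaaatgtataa
CYTH1, chr17:76777949-76777990, minus strand: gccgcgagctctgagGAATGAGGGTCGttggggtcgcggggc

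The 36 other Even peaks were mostly weak. They rested on 2 to 19 tags, 22 of them (61.1%) on 3 or fewer, against 36.7% of all Even peaks, and 34 had no Odd peak over them. FHIT had 10, none above 3 tags, CYTH1 had 9, PCCA 6, FAM193B and CTSC 4 each, SAMD4A 2 and ANKHD1 1. Of the 36, 10 lay within 5 kb of the strongest summit of their gene. In the Even list 4 peaks had their summit in an exon. They were in coding exon 10 of ANKHD1 with 11 tags and an enrichment of 3.72, in coding exon 9 of PCCA with 4 tags and 8.11, in an exon of a CTSC transcript other than the canonical one with 9 tags and 6.08, and in an exon of an unnamed gene within CYTH1 with 3 tags and 14.2. No Odd summit lay in a basic exon of the 8 genes. Even peaks numbered 16.4 per Mb in the 8 gene bodies and 13.4 per Mb without the strongest ones, against 5.18 per Mb in all protein-coding gene bodies. The 8 were chosen for strong peaks and expression was not measured, so these densities are a description. They were uneven, with 5 Even peaks in the 34798 bp of FAM193B and 11 in the 1504131 bp of FHIT.

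Relatives and partners of the 8 genes were counted in the same way. Of 26 such genes, 18 had no peak in either list, 8 had an Even peak and 1 had an Odd peak. The share of all genes with a peak was not counted, so these counts cannot be called high or low. The 1 with an Odd peak was WWOX, a gene that like FHIT spans a common fragile site. It had 2 Odd peaks, both in introns, and 1 of them, of 49 tags and an enrichment of 104, was overlapped by an Even peak of 7 tags and 33.2. That window shared an 11-nt run with positions 306 to 316 of SNHG5 on the gene's strand, which covers the word except its first base. The median longest run over the 148 2-pool Odd peaks in introns outside the 8 genes was 12 nt. Of the partners of EFL1, EIF6 had 2 Even peaks of up to 459 tags, with enrichments of at most 27.5, and SBDS had none. The cathepsins CTSB and CTSV had 4 Even peaks each, and PCCB, FAM193A, CYTH2 and CYTH3 had 1 each.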

How the data were processed

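RIA-seq tags of 5 HCT-116 libraries had been mapped by the authors to hg19 (STAR, per the labels' processing notes) and peaks called with MACS 2.0.9, per the file headers, against the pooled control. Odd peaks were filtered for reproducibility between replicates. An Even replicate had failed, and the study extrapolated the number of reproducible Even peaks from Odd, 905 as its optimal result. The Even list used here was not cut to that number and holds 8626 peaks. The study then removed peaks in introns as likely errors of the shift applied to tags, and the part of that shift in the peaks given here was not tested. Each deposited list gives a pileup (a coverage signal at the summit), a fold enrichment, which is the ratio to the local control background, and a −log10 p-value, all computed by the authors, besides positions. The lists hold no value per library, and q values were not used. MACS kept 4904959 Odd, 1965614 Even and 3986040 control tags, 3.27%, 3.51% and 3.47% of all, at fragment lengths of 260 bp (Odd) and 290 bp (Even).

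Background was taken as pileup over fold, which gave the deposited −log10 p back with a median deviation of 0.00795%. With 1 added to the pileup, as first planned, the deviation was 9.61%. Even pileups are tags times 2.03, cut to whole numbers, and were turned back into tags. Genes were GENCODE 44 on GRCh37, and sequences came from that reference. Tools were bedtools 2.31.1, pysam 0.24.0, samtools 1.23.1, numba 0.67.0, scipy 1.17.1, pandas 2.3.3 and matplotlib 3.10.9. The overlap, run, region and copy steps were tested on simulated data. No test was made, since the lists have 1 value per pool. The genes named are the 8, genes across or nearest opposite their peaks, SNHG5 and a list of 26 relatives and partners. RALY, NR2F2-AS1 and LNC-LBCS fall outside this rule, and their values were known when they were named. The 8 genes, the lists and the word were chosen with earlier results of these data known. Alternatives covered the gene bodies, the Even list, the overlap rule, the exons, the background, the windows and the SNHG5 transcript.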

Additional observations from a re-analysis of the deposited data

How the results depend on the processing

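No paired analysis was possible because the lists hold no value per library, and for the same reason no library could be left out. With the 905 best Even peaks only, the number of Even peaks in the 8 genes fell from 44 to 9 by p and to 12 by fold, while 9 of the 11 Odd peaks were still overlapped by one of smallest p. The counts of Odd peaks, of overlapped Odd peaks (8 to 10) and of summits in introns (44 to 51, against 46) stayed within 1.5 times under their alternatives. Over the 9 2-pool peaks with their summit in basic introns, which leave out CTSC and include all 3 of CYTH1, the median distance to an exon was 7731 bp. Of these 3, the one at the start of CYTH1 ran across its first exon. It was 5145 bp with all transcripts, 7445 bp from the peak edge and 7781 bp from the Even summit. The median background of 0.472 became -0.522, which is impossible for a pileup, with 1 added to the pileup. The median longest run was 13 nt with the longest annotated SNHG5 transcript, 12 nt within 100 bp and 12 nt with SNHG5-214 on both strands or on the gene's strand alone, an alternative chosen after seeing the data. The median share of copied words was 0% throughout. At 5 of the strongest peaks there was no control tag, so depth bounds their enrichment only from below, and Even peaks of 2 or 3 tags carry little precision. No repeat annotation was used here, so repeats were checked only as exact copies.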

Other observations

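The 20 Odd peaks outside exons with the largest smaller enrichment of both pools were the 8 described above and 12 others. Of the 12 others, 7 held TAGAGGCC in the window on either strand. The 8 held it by the definition of the word, which makes 15 of the 20. The 7 included introns of RALY (182 for Odd and 83.4 for Even), CRADD (122 and 83.1), PIK3R4 (97.5 and 77.1) and EIF5B (88.8 and 67.6). The peaks in introns of LNC-LBCS (271 and 109), C2CD2 (72.0 and 123) and PTK2 (105 and 64.9) did not hold it. These genes were named after their values were seen.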
